A study of Rattus norvegicus with 71 samples.

Results

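Brains of newborn rats whose dams had been immunized against CRMP1 and CRMP2 were compared with brains of control offspring from the same sequencing series. The members were chosen by label: 8 animals carry the autoantibody label CRMP1+CRMP2, and 12 animals carry the condition Control and the autoantibody None. All 20 belong to the MAR_C3 title series, and the whole study sequenced 71 animals. Each group came from 4 litters, which are called here exposed litters A, B, C and D and control litters E, F, G and H. Every animal was a wild-type (WT) Sprague-Dawley pup taken at PND2, the second day after birth. Exposed dams had received weekly injections of peptides of both antigens in Freund's adjuvant before mating, and control dams had received the adjuvant with saline, so the adjuvant was common to both groups. Treatment was given to the dam, so littermates are not independent, and the antibody level of each dam was not analysed here. Exposed litters A, C and D and control litters E and G gave 1 male and 1 female each. Exposed litter B gave 2 males, control litter F gave 4 females and control litter H gave 4 males. For a comparison between patterns, the 23 animals (12 litters) of the same series exposed to CRMP1+GDA, STIP1+NSE or LDHA/B+CRMP1+STIP1 were also used. RNA came from 1 thin coronal slice of each brain, which was meant to hold hippocampus with neighbouring cortex and deeper structures, whereas the series' design text names frontal cortex and hypothalamus. The study's methods place all sequenced pups in the first litter of a dam, whereas its list of offspring places the CRMP1+CRMP2 pups in the first and the control pups in the second. By that list, litter order and exposure cannot be told apart in the main comparison. The study's sample collection cohorts could not be assigned to the animals from the sources used here.

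Collapsin response mediator proteins (CRMPs) are abundant cytosolic proteins of growing neurons, which relay semaphorin 3A signals to the cytoskeleton of the growth cone. CRMP2, the product of *Dpysl2*, binds tubulin and promotes microtubule assembly in axons, and phosphorylation by Cdk5 and Gsk3b weakens that binding. Maternal IgG reaches the rat fetus through Fc receptors, and antibodies against CRMP1 and CRMP2 are among the patterns that define maternal autoantibody-related autism.

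Libraries held 26246595 to 36234952 gene counts in exposed animals and 26191426 to 34323510 in controls, so that a value of 1 CPM, the usual unit of counts scaled to library size, stood for 26.2 to 36.2 counts. The 10 most abundant genes took 4.13% to 5.01% of a library, and even the most alike libraries differed by more than sampling noise (chi-square per gene 5.52), so each was counted as a separate sample. The Y-linked gene *Eif2s3y* matched all sex labels, with males from 67.6 CPM upwards and females no higher than 0.375 CPM. *Neurod6*, a marker of pyramidal neurons, was between 117 and 254 CPM in all 20 libraries, so tissue of cortex or hippocampus was present in each. Control littermates resembled each other more than controls of different litters did. Exposed littermates were about as far apart as exposed animals of different litters. The median distance between libraries was 0.409 within control litters (14 pairs) and 0.508 between them. It was 0.579 within exposed litters (4 pairs) and 0.594 between them (root mean square log2 difference as in a multidimensional scaling plot). Between exposed and control animals it was 0.534 (96 pairs). Most control pairs came from litters F and H, which held a single sex each, whereas litters A, C and D paired a male with a female. Sex and group thus cannot be told apart here.

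Several exposed slices held RNA of other brain regions at levels that no control slice reached. The pineal gland makes melatonin and expresses many photoreceptor genes. *Tph1*, which encodes the first enzyme of pineal serotonin synthesis, was at 189.8 CPM in the female of exposed litter A and 53.5 CPM in the female of exposed litter C, and between 0.216 and 1.02 CPM in the other 6 exposed animals. In the 12 controls it did not pass 1.65 CPM. *Crx*, the homeodomain factor of photoreceptors and pinealocytes, was at 12.9 and 4.39 CPM in the same 2 females, at 0.270 CPM in 1 male of litter B and at 0 in the other 5 exposed animals. Controls were at 0 in 9 of 12 libraries and at most 0.142 CPM. *Sag* (arrestin of photoreceptors) reached 11.6 and 1.16 CPM in these females, and *Aanat*, which encodes the enzyme that sets melatonin synthesis, 19.1 and 2.40 CPM, against at most 0.529 CPM in every control. Summed over the 21 genes of a pineal and photoreceptor list, levels ran from 69.9 to 463.8 CPM in exposed animals and from 74.8 to 86.3 CPM in controls, with 4 exposed animals above every control. The 2 highest were these 2 females.

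*Crx* and *Lrit1*, a photoreceptor membrane protein gene, both passed the test given below, having met its expression filter only through the females of litters A and C. Their promoters are printed because they share the letters that Crx itself recognises. The windows run from 250 bases before to 50 bases after the start in the RefSeq annotation of build GRCr8, chr1:85681803-85682102 on the minus strand for *Crx* and chr16:12842089-12842388 on the plus strand for *Lrit1*. Capitals mark TAATCC or its reverse complement GGATTA.
Crx: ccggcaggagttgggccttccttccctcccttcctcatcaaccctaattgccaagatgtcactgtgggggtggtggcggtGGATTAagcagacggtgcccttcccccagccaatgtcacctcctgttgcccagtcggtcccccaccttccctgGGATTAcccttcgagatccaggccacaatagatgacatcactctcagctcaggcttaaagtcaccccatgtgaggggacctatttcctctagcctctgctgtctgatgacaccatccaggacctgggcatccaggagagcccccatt
Lrit1: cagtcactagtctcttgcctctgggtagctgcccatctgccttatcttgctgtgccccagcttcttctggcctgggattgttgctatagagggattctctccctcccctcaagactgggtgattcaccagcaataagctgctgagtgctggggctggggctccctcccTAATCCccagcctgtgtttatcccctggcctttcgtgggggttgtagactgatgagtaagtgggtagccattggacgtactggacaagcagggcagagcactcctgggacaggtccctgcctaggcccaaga
The letters occurred on either strand in 5 of the 17 promoters found for the list (29.4%; *Aanat*, *Aipl1*, *Cngb1*, *Crx* and *Gngt1*), in 5.21% of the 9977 promoters found for tested genes and in 7.11% of all 27457 promoters. The promoter of *Sag*, which also passed the test, held 0 matches, and *Lrit1* is not in the list. A match describes the sequence only.

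Homeobox genes of the Hox clusters pattern the hindbrain and spinal cord and are silent in forebrain. Their summed level was 118.5 CPM in the male of exposed litter C and 53.1 CPM in 1 male of exposed litter B, at most 2.54 CPM in the other 6 exposed animals and at most 8.29 CPM in controls. *Hoxa5* was at 27.9 and 9.58 CPM in these 2 males and at 0 in 5 of the other 6 exposed animals. *En2*, a gene of the midbrain and anterior hindbrain, was between 4.83 and 6.02 CPM in both males of litter B and the male of litter D, but also 5.23 CPM in 1 control male of litter H. Thalamic RNA went the other way in 2 exposed animals. *Tcf7l2*, a transcription factor of thalamic neurons, was at 15.2 CPM in the female of litter A and 112 CPM in 1 male of litter B, against 216 to 599.5 CPM in the other exposed animals and 132.5 to 592 CPM in controls. The summed thalamus list (12 genes) was 374 and 555 CPM in these 2 animals and 697.5 to 1634 CPM in controls, and the summed hypothalamus list (25 genes) ran from 123 to 298 CPM in exposed animals and from 149.5 to 359 CPM in controls. Choroid plexus sums (16 genes) varied widely in both groups, from 255 to 3763 CPM in exposed animals and from 173 to 3176 CPM in controls. In bulk tissue, fewer cells of a type and less RNA per cell cannot be told apart. Fits that leave the named animals out, or that take the first 2 components of the region markers as covariates, are given with the counts below.

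**Figure D1:**
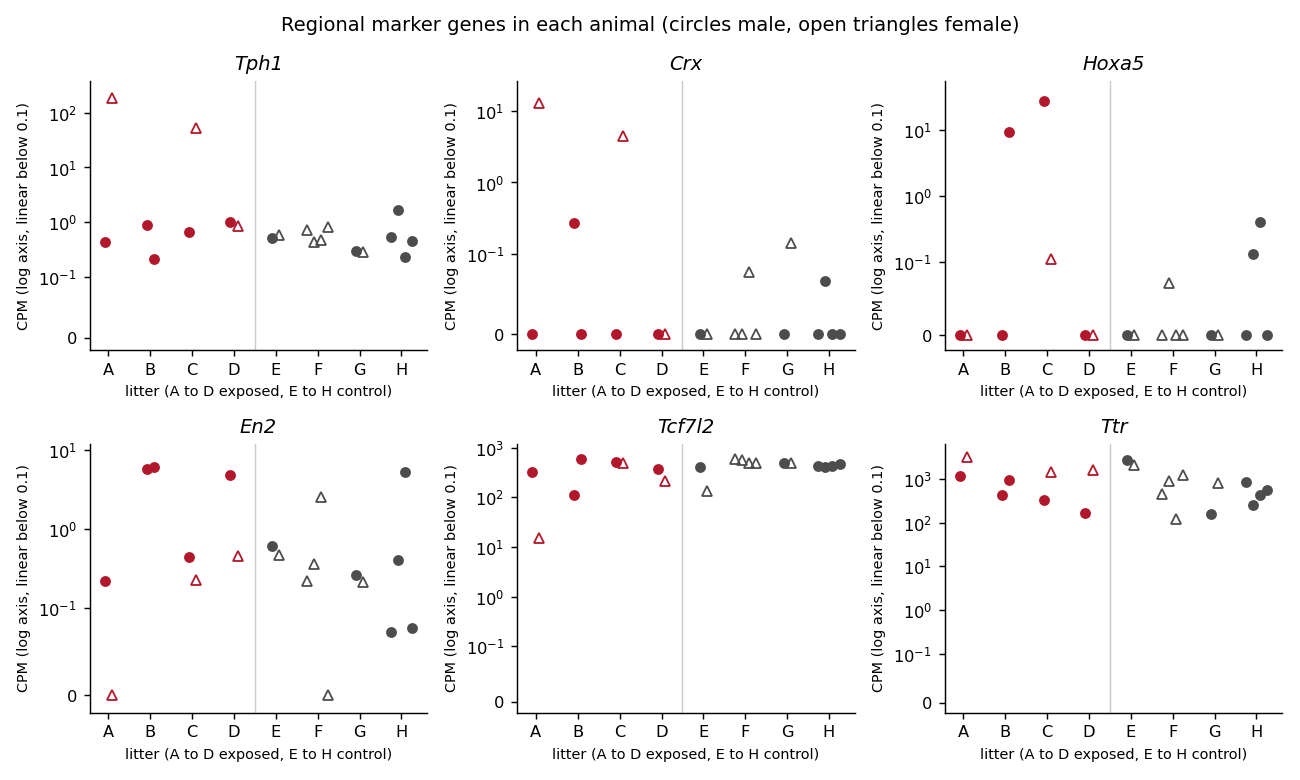
Levels of 6 regional marker genes in each animal, in CPM on a log axis that is linear below 0.1, by litter (A to D exposed, E to H control; filled circles male, open triangles female). *Tph1* and *Crx* were high in the females of litters A and C, *Hoxa5* in 1 male each of litters B and C, and *Tcf7l2* was lowest, at 15.2 CPM, in the female of litter A.

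The genes of the antigens themselves were examined first. *Crmp1* ranged from 1878 to 2975 CPM in exposed animals (median 2378) and from 2252 to 2765 CPM in controls (median 2381). The groups overlapped, with the highest value in the female of litter A and the lowest in 1 male of litter B, and the difference was -0.022 ± 0.058 on the log2 scale (SE; edgeR quasi-likelihood test, FDR = 0.853, where FDR is the p-value adjusted by Benjamini-Hochberg over all genes tested). *Dpysl2*, which encodes CRMP2, ranged from 2216 to 2857 CPM in exposed animals (median 2568) and from 2590.1 to 3165 CPM in controls (median 2885). All 8 exposed animals lay below the median of the controls and 4 of them below every control. The difference was -0.18 ± 0.055 and missed the threshold of FDR < 0.1 (edgeR FDR = 0.121). These 4 were both animals of litter A, 1 male of B and the male of C, and both animals of litter D, at 2849 and 2857 CPM, lay among the controls.

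The other CRMP genes are *Dpysl3*, *Dpysl4* and *Dpysl5*, whose products form mixed tetramers with CRMP1 and CRMP2. Their differences were 0.01 ± 0.057, -0.024 ± 0.054 and 0.051 ± 0.066 (edgeR FDR = 0.932, 0.824 and 0.667). As RPKM, which divides CPM by exon length in kilobases, *Dpysl3* had the highest mean level of the family in controls at 847 ± 48.3 (SD, n = 12), followed by *Crmp1* at 729.9 ± 40.7, *Dpysl2* at 659.8 ± 42.7, *Dpysl5* at 388 ± 37.8 and *Dpysl4* at 68.5 ± 4.80. In exposed animals the means (SD, n = 8) were 855 ± 98.7, 715 ± 93.0, 583 ± 58.1, 399.8 ± 43.5 and 67.3 ± 6.00 RPKM in the same order. Genes of the antigens of the other patterns were all lower in estimate, and none passed the threshold. They were *Stip1*, a co-chaperone of HSP90 (-0.052 ± 0.054), *Gda*, guanine deaminase (-0.33 ± 0.20), *Eno2*, neuron-specific enolase (-0.20 ± 0.065, FDR = 0.139), and the lactate dehydrogenase genes *Ldha* (-0.13 ± 0.08) and *Ldhb* (-0.14 ± 0.071).

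**Figure D2:**
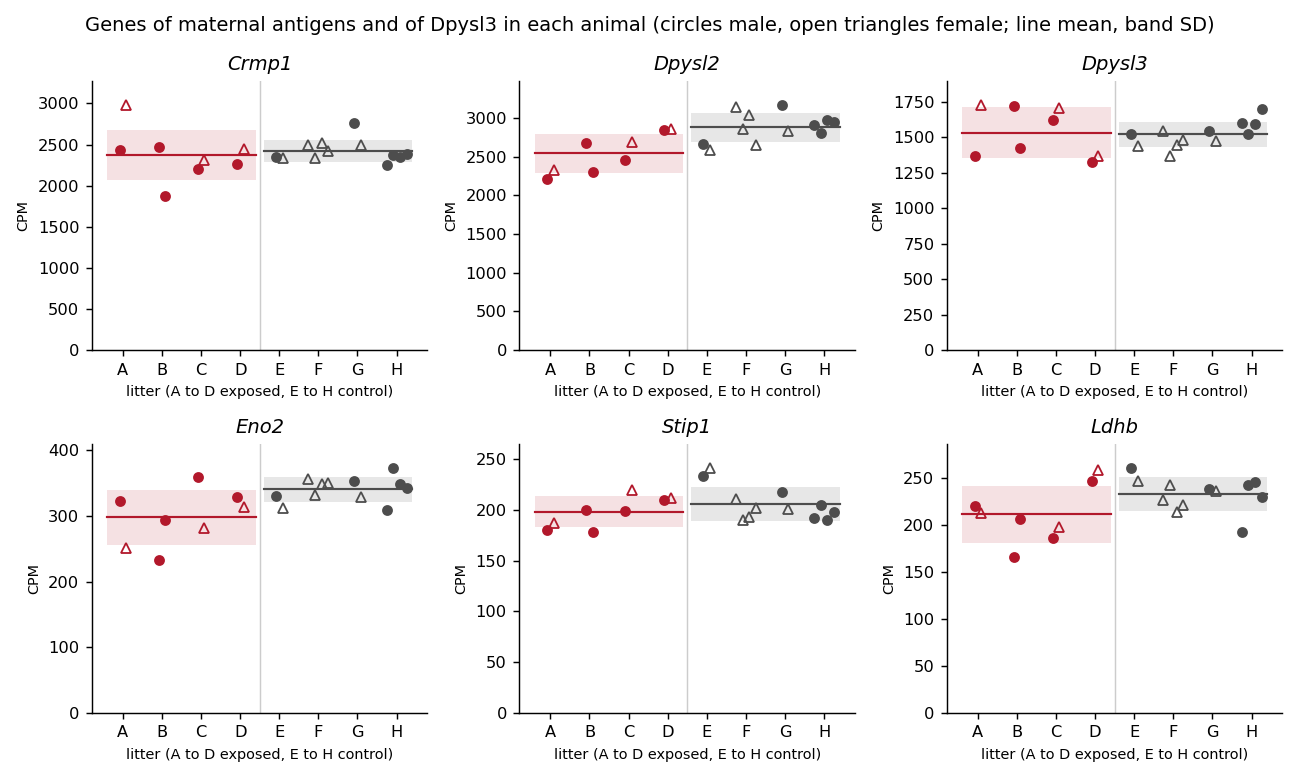
Levels of the genes of 5 maternal antigens and of *Dpysl3* in each animal, in CPM on linear axes from 0, by litter (A to D exposed, E to H control; filled circles male, open triangles female). Lines are group means and bands are SDs over 8 exposed and 12 control animals. *Dpysl2* lay below the control median of 2885 CPM in all 8 exposed animals, and for *Crmp1* the groups overlapped.

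Of 12605 genes tested in the 20 animals with sex as a covariate, 127 passed FDR < 0.1 (1.01%), 50 higher (0.397%) and 77 lower (0.611%) in the exposed group. At an unadjusted p under 0.05 there were 1193 higher (9.46%) and 1323 lower (10.5%). Raised genes were 39.4% of the calls with TMM scaling, 56.2% with upper-quartile scaling and 66.7% with library sizes alone. Most of the 127 differences were small, and 111 were under 1.5-fold. Lowered genes ran from -0.15 to -0.81 on the log2 scale with a median of -0.29, and the median of the raised genes was 0.36. The 7 genes raised by more than 1 on the log2 scale were *Crx*, *Lrit1* and *Sag* of the pineal and photoreceptors, *Hoxa5*, *Hoxb5* and *Evx1*, which pattern hindbrain and spinal cord, and the proneural factor *Neurod4*. *Crx*, *Lrit1* and *Sag* met the filter of over 1 CPM in at least 2 animals only through the females of litters A and C. *Hoxa5* and *Hoxb5* met it only through 1 male each of litters B and C. *Evx1* was at most 0.132 CPM in controls, so exposed animals alone brought it through the filter. These calls rest on a few exposed slices. The other 43 raised genes ran from 0.19 to 0.91.

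With the litter as the unit, 0 genes passed. A random effect of the litter in limma voom, at an estimated correlation of 0.397 between littermates, gave 0 genes at FDR < 0.1 (smallest 0.458) and 1373 at p under 0.05 (10.9%), and counts summed per litter in edgeR gave 0 and 657. Of the 127 genes, 121 had p under 0.05 with the random effect. Means of the 4 exposed litters lay all above or all below those of the 4 control litters for 416 genes (3.30%), 170 higher (1.35%) and 246 lower (1.95%), so that 40.9% were higher, against 61.1% with library sizes alone. Among the 127 genes, which were chosen by their difference in the same animals, this held for 27 of the raised and 54 of the lowered ones. The 127 genes were not shifted equally in the exposed litters. The median shift in the called direction, against the mean of the control litters, was 0.49 in litter B, 0.30 in C, 0.28 in A and 0.16 in D on the log2 scale. Control litters, each set against the mean of the other control litters, lay between -0.04 and 0.082. Leaving out exposed litter B left 1 gene, leaving out exposed litter C or control litter G left 0, leaving out control litter H left 9, and leaving out exposed litter D or control litter F gave 2080 and 2154. With the first 2 components of the region markers as covariates 0 genes passed in edgeR, with 825 at p under 0.05. Without the 2 females with pineal RNA 0 genes passed in edgeR, with 1782 at p under 0.05. Without the 2 males with Hox RNA 0 passed, with 1982 at p under 0.05, and without the 2 animals low in thalamus markers 1 gene passed, *Polq*.

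*Polq* had the smallest p. It encodes DNA polymerase theta, which joins broken DNA ends at short stretches of homology, and it lies on chromosome 11, 63673816 to 63775878, on the minus strand of rn7. Levels in exposed animals were 4.16 and 3.48 CPM in litter A, 2.58 and 3.46 in B, 4.82 and 4.65 in C and 4.38 and 3.31 in D. Controls ran from 1.59 to 2.96 CPM with a median of 1.91. Thus 7 of the 8 exposed animals lay above every control, and 1 male of litter B lay within their range. The difference was 0.91 ± 0.15 (edgeR FDR = 0.0393), or 1.89-fold. Males and females differed alike in mean, with 3.88 against 2.09 CPM in males and 3.81 against 1.99 CPM in females. Under 25 alternative fits the estimate for *Polq* ran from 0.77 to 1.05, and the call was lost in 7 of them, among them those without exposed litter C or control litter G. DESeq2 gave no adjusted p for it.

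*Nfatc3*, a calcium-regulated transcription factor of the calcineurin pathway (chromosome 19, 33960852 to 34035150, plus strand), ran from 16.7 to 22.9 CPM in exposed animals (median 19.4) and from 12.4 to 16.9 CPM in controls (median 13.7). Again 7 of 8 exposed animals lay above every control, and the difference was 0.44 ± 0.083 (edgeR FDR = 0.0531). *Lnx2*, an E3 ubiquitin ligase that binds Numb, was raised by 0.36 ± 0.071 (edgeR FDR = 0.0705) and *Pag1*, an adaptor that recruits Csk to lipid rafts, by 0.54 ± 0.12 (edgeR FDR = 0.0753). *Igf2bp3*, an RNA-binding protein of fetal growth, was raised by 0.83 ± 0.18 (edgeR FDR = 0.0753), from a control range of 5.58 to 9.11 CPM to 11.6 CPM at the median of the exposed group. The highest *Igf2bp3* value, 21.3 CPM, came from the male of litter B with low thalamus markers, and the 2 animals of litter D, at 5.71 and 7.72 CPM, lay within the controls. Further raised genes by the smallest p were *Shroom4* (0.53), *Rai14* (0.35), *Rsbn1l* (0.30), *Ddi2* (0.28), *Tjp1*, which encodes the tight junction scaffold ZO-1 (0.24), *Gabpa*, an ETS factor of genes for mitochondrial proteins (0.21), *Mcm4*, a subunit of the replicative helicase (0.35), *Ttll13* (0.79), *Atp13a3* (0.26) and *Smurf2*, a ubiquitin ligase of TGF-beta signalling (0.23), with log2 differences in parentheses and edgeR FDR between 0.0753 and 0.0818.

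**Figure D3:**
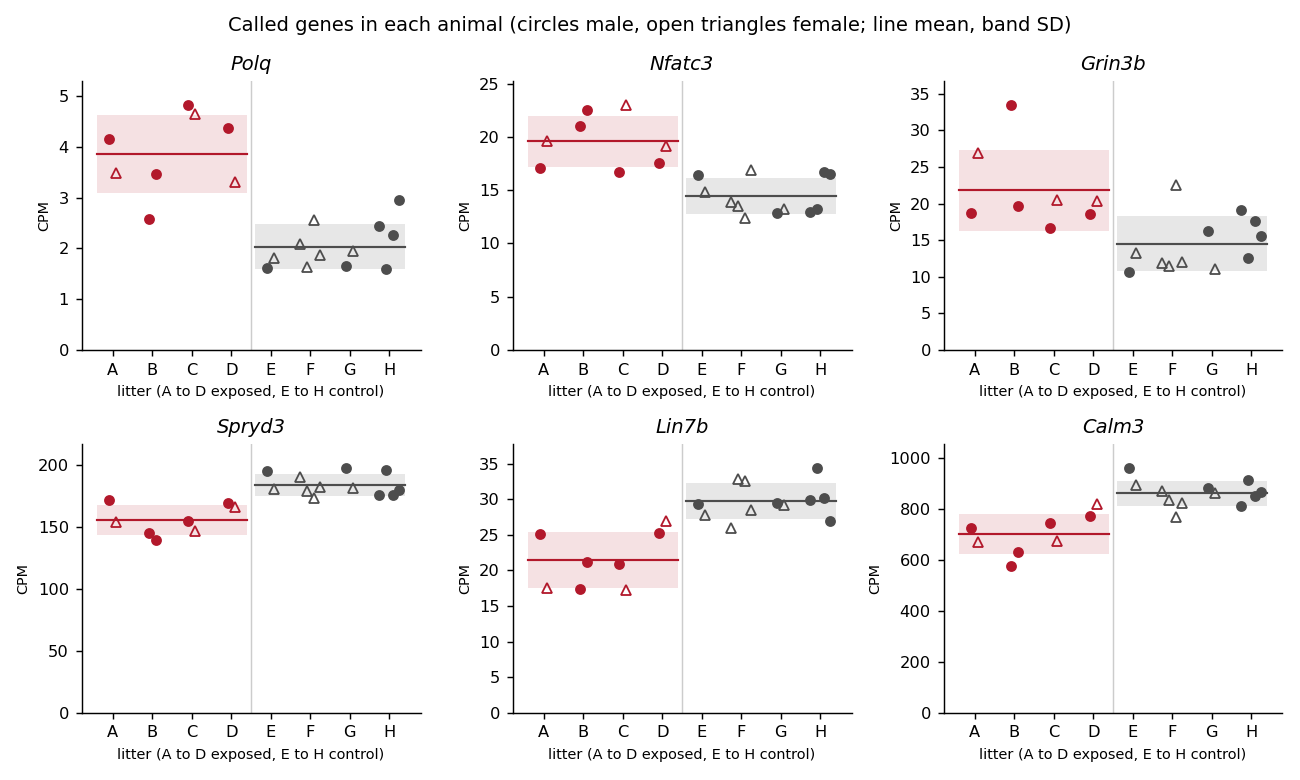
Levels of 3 raised and 3 lowered genes in each animal, in CPM on linear axes from 0, by litter (A to D exposed, E to H control; filled circles male, open triangles female). Lines are group means and bands are SDs over 8 exposed and 12 control animals. For *Polq* and *Nfatc3* 7 of 8 exposed animals lay above every control, and for *Spryd3* all 8 lay below every control.

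Among lowered genes, *Spryd3*, a SPRY domain gene on chromosome 7 (133247982 to 133265161, minus strand), ran from 139 to 172 CPM in exposed animals (median 154) and from 173 to 197 CPM in controls (median 181). It was 1 of 2 genes for which all 8 exposed animals lay below all 12 controls (0.0159% of genes), and no gene had all 8 above. The other was *Vps37d*, a subunit of the ESCRT-I sorting complex. The differences were -0.24 ± 0.045 for *Spryd3* (edgeR FDR = 0.0531) and -0.19 for *Vps37d* (edgeR FDR = 0.0818).

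*Lin7b*, a scaffold that links receptors and adhesion proteins at neuronal junctions (chromosome 1, 95846971 to 95849546, minus strand), ran from 17.3 to 26.99 CPM in exposed animals (median 20.97) and from 25.95 to 34.3 CPM in controls (median 29.4). Of the 8 exposed animals 7 lay below every control, and the difference was -0.48 ± 0.087 (edgeR FDR = 0.0531), the largest among the 15 lowered genes of smallest p. *Calm3*, 1 of the genes for calmodulin (chromosome 1, 77590668 to 77597776, minus strand), ran from 575 to 818 CPM in exposed animals (median 699) and from 769 to 960.5 CPM in controls (median 866). The 2 exposed animals within the control range were those of litter D, and the difference was -0.30 ± 0.058 (edgeR FDR = 0.0603). *Fam241b* fell by 0.36 with an SE of 0.061 (edgeR FDR = 0.0393), from a control median of 45.3 to 36.8 CPM.

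Other lowered genes of smallest p were *Celf6*, a splicing regulator (-0.31), *Habp4* (-0.38), *Galnt18*, a glycosyltransferase gene (-0.38), *Klhdc8a* (-0.34), *Rnf227* (-0.29), *Glrx5*, which serves iron-sulphur cluster assembly in mitochondria (-0.37), *Abcf3* (-0.17), *Rpl12*, a ribosomal protein gene (-0.31), *Cgref1* (-0.41), *Sqstm1*, the autophagy receptor p62 (-0.29), and *Bmerb1* (-0.19), given as log2 differences with edgeR FDR = 0.0753 for each. The means of the 4 exposed litters lay below those of the 4 control litters for 14 of the 15 genes of this rule, the exception being *Rnf227*. Over all genes tested the share was 1.95%. The 15 genes were chosen by p in these same animals, so this is a description. Reads of ribosomal protein genes can be shared with near-identical processed copies, and how the authors counted such reads is not given in the sources used here, so the value of *Rpl12* is uncertain to that extent.

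In the lists of oxidative phosphorylation and of hypoxia and glycolysis most genes were lower in estimate, but no listed gene passed in edgeR. Oxidative phosphorylation genes encode the respiratory chain and ATP synthase of mitochondria. All 75 measured members were lower in estimate, with a median of -0.18 on the log2 scale beside 0.01 over all genes tested. None passed FDR < 0.1 in edgeR, while 45 (60%) had p under 0.05 and lower levels, against 10.5% of all genes. *Sdha*, the flavoprotein of complex II, had the smallest p (-0.21 ± 0.055, edgeR FDR = 0.103). In DESeq2 16 of the 75 were called, and limma voom called 1. Over all genes, DESeq2 called 827 of the 7962 with an adjusted p, 537 of them lower. The total for limma voom was 146 of 12605, 100 of them lower. The 4 exposed litters were not alike: the median over the list was -0.43 in litter B, -0.28 in C, -0.20 in A and 0.018 in D relative to the mean of the control litters, and the control litters themselves ran from -0.15 (H) to 0.20 (E), so the litters overlapped. All 75 were also lower in estimate without litter B (median -0.11) or without the pineal, Hox or thalamus-poor animals (medians -0.16, -0.13 and -0.15). With a correction for exon length 69 of 75 were lower, with a median of -0.072. Of 25 genes of hypoxia and glycolysis 18 were lower in estimate, and none passed FDR < 0.1. At p under 0.05, 10 (40%) were lower, against 10.5% of all genes.

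Ribosomal protein genes ran the same way. Of 79 cytosolic ribosomal protein genes 77 were lower in estimate (median -0.15), *Rpl12* passed FDR < 0.1, and 21 (26.6%) had p under 0.05 and lower levels, against 10.5% of all genes. Litter medians ran from -0.36 (B) to -0.015 (D) in exposed and from -0.16 (F) to 0.18 (G) in control litters. With the correction for exon length 51 were lower and 28 higher, and the median was -0.021. Of 70 mitochondrial ribosomal protein genes 66 were lower in estimate (median -0.12), and 19 (27.1%) had p under 0.05 and lower levels. *Mrps34* (-0.36 ± 0.086) and *Mrpl43* (-0.30 ± 0.071) passed, both with edgeR FDR = 0.0818, while 0.611% of all genes were called lower. Litter medians ran from -0.29 (B) to 0.0034 (D) in exposed and from -0.12 (H) to 0.15 (E) in control litters. With the correction the median was -0.046.

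The lists of synaptic vesicle genes and of postsynaptic scaffold and adhesion genes gave 4 calls, all of them lower. In the list of synaptic vesicle and release genes 47 of 60 were lower in estimate (median -0.098), and 20 (33.3%) had p under 0.05 and lower levels, against 10.5% of all genes. Lower calls made up 0.611% of all genes. *Syp*, which encodes the vesicle protein synaptophysin, ran from 392 to 659 CPM in exposed animals (median 599) and from 604 to 761 CPM in controls (median 713). The lowest values came from the same male of litter B and the female of litter A in which thalamus markers were low, at 392 and 426 CPM, and all 8 exposed animals lay below the control median. *Syp* fell by 0.33 (SE 0.084, edgeR FDR = 0.0939), *Syngr3* (synaptogyrin 3) by 0.30 (FDR = 0.0818) and *Rims3*, a regulator of release, by 0.33 (FDR = 0.0939). In the postsynaptic list the same number of members was higher and lower in estimate, 14 each, and *Dlg4*, which encodes PSD-95, fell by 0.15 (SE 0.040, edgeR FDR = 0.0998).

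Receptor genes varied by subunit. Of 7 NMDA receptor subunit genes only *Grin3b*, the glycine-binding subunit GluN3B, passed. It ran from 16.7 to 33.4 CPM in exposed animals (median 20.01) and from 10.6 to 22.5 CPM in controls (median 12.9). All 8 exposed animals lay above the control median and 2 above every control, and the difference was 0.59 ± 0.15 (edgeR FDR = 0.0984). The 2 were the male of litter B and the female of litter A with low thalamus markers, and without them the difference was 0.38 (edgeR FDR = 0.322). *Grin2b* was 0.43 ± 0.13 higher and *Grin2d* 0.34 lower in estimate, and neither passed. None of 9 AMPA and kainate receptor genes had p under 0.05, and of 12 GABA-A receptor genes 1 did, *Gabra5* (-0.29 ± 0.088, edgeR FDR = 0.118).

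Genes around the CRMPs gave calls among microtubule proteins. Of 25 genes for tubulins and neuronal microtubule proteins 15 were lower in estimate and 2 passed, while 0.611% of all genes were called lower. *Stmn3*, a stathmin that binds tubulin dimers, ran from 525 to 747 CPM in exposed animals (median 634) and from 686 to 884 CPM in controls (median 776), a difference of -0.28 ± 0.07 (edgeR FDR = 0.0939). *Tubb2a*, a neuronal beta-tubulin, fell by 0.22 (SE 0.057, edgeR FDR = 0.0984), and its reads may be shared with those of close paralogs. Both had litter means without overlap, as 1.95% of all genes tested did in the lower direction. Of 21 genes for semaphorin 3A, its receptors and CRMP partners 16 were higher in estimate (median 0.077) and none passed, with 5 higher (23.8%) and 2 lower (9.52%) at p under 0.05, against 9.46% and 10.5% of all genes. *Klc1*, a kinesin light chain, had the smallest p (-0.16 ± 0.044, edgeR FDR = 0.108), and *Plxna2*, a semaphorin co-receptor, was 0.37 ± 0.12 higher (FDR = 0.139). Among 38 axon guidance genes 30 were higher in estimate (median 0.091). *Efnb2*, which encodes ephrin-B2, was raised by 0.28 (SE 0.072, edgeR FDR = 0.0978), while 0.397% of all genes were called higher. With the correction for exon length 22 of the 38 were higher, and the median was 0.019. For the 21 semaphorin and CRMP partner genes it left 13 higher, with a median of 0.037.

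Genes of chromatin, transcription and the genome were higher in estimate. All 23 autism-linked chromatin regulators were higher in estimate (median 0.23), none passed FDR < 0.1 in edgeR, and 12 (52.2%) had p under 0.05, against 9.46% of all genes with higher levels. DESeq2 called 7 of them and limma voom 0. Over all genes, DESeq2 called 290 of 7962 higher and limma voom 46 of 12605. *Kdm6b*, a histone H3 demethylase, had the smallest p (0.40 ± 0.12, edgeR FDR = 0.113). Litter medians were 0.49 in B, 0.31 in C, 0.19 in A and 0.018 in D, and between -0.21 (E) and 0.18 (F) in control litters. With the correction for exon length the median was 0.12, with 18 of 23 higher. Of 175 numbered zinc finger genes 128 were higher in estimate (median 0.098), none passed, and 30 (17.1%) were higher at p under 0.05, against 9.46% of all genes.

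Of 26 DNA repair genes 22 were higher in estimate (median 0.15). *Polq* passed, and 11 (42.3%) had p under 0.05 and higher levels, against 9.46% of all genes, among them *Atm*, the kinase of the double-strand break response (0.44 ± 0.13, edgeR FDR = 0.113), *Lig3* (0.19) and *Fancd2* (0.36). Of 34 cell cycle genes 29 were higher in estimate and *Mcm4* passed. At p under 0.05, 3 (8.82%) were higher, no more than the 9.46% of all genes. Among 32 neuron differentiation factors 23 were higher in estimate and *Cux1* and *Neurod4* passed, while 0.397% of all genes were called higher. *Cux1*, a factor of upper-layer cortical neurons with 12860 bases of exon, was 0.24 ± 0.063 higher (edgeR FDR = 0.0998), and with the correction for exon length its difference was -0.017. *Neurod4* reached 23.5 CPM in the female of litter A, 9.79 CPM in the female of litter C and 2.21 CPM at the exposed median. These are the 2 animals with pineal RNA, and without them the difference fell from 1.67 to 0.45 (edgeR FDR = 0.424).

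Genes of the extracellular matrix and vessels were higher in estimate without a call. Of 41 genes for cell-matrix adhesion and basement membrane 31 were higher (median 0.19) and 12 (29.3%) had p under 0.05 and higher levels, against 9.46% of all genes, led by *Fn1*, fibronectin (0.56 ± 0.16, edgeR FDR = 0.107). With the correction for exon length 30 of the 41 were higher, and the median was 0.077. Among 15 fibrillar collagens and stromal genes 14 were higher (median 0.44), with litter medians of 0.98 in A, 0.63 in D, 0.59 in B and -0.16 in C and of 0.42 in H, 0.31 in E, -0.17 in G and -0.58 in F, so the litters overlapped. The meningeal marker list holds some of the same genes, among them *Col1a1*, *Col1a2* and *Col3a1*, so it is not an independent measure. Its sum ran from 356 to 1545 CPM in exposed animals and from 219 to 987 CPM in controls, with 2 exposed animals above every control. The part of meningeal tissue in the matrix genes was not tested.

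Immune genes gave no call. The sum of 16 microglia and complement genes ran from 90.4 to 171 CPM in exposed animals and from 54.5 to 138 CPM in controls, and 14 of the 16 were higher in estimate (median 0.22). *Cd68*, a lysosomal protein of phagocytes, had the smallest p (0.89 ± 0.24, edgeR FDR = 0.101), from 1.46 to 4.97 CPM in exposed animals and from 0.607 to 2.46 CPM in controls. The litters overlapped on this list, with medians of 0.12 to 0.63 in exposed litters, 0.71 and 0.39 in control litters E and H and -0.61 and -0.36 in control litters F and G. All 8 measured mast cell genes were higher in estimate (median 0.83), with none called. At p under 0.05, 2 of them (25%) were higher, against 9.46% of all genes. All 7 measured genes for IgG transport and Fc receptors were higher in estimate, with *Trim21*, a cytosolic antibody receptor, at 0.669 to 1.73 CPM against 0.142 to 1.25 CPM in controls (0.82 ± 0.25, edgeR FDR = 0.122). Of 28 genes for the cytokines and growth factors of a protein panel, 4 passed the expression filter, and none of these passed the test. *Cx3cl1*, the neuronal chemokine fractalkine, had the smallest p (-0.23 ± 0.088, edgeR FDR = 0.176).

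Of 14 oligodendrocyte lineage genes 8 were lower and 6 higher in estimate, with 6 lower and 1 higher at p under 0.05 (42.9% and 7.14%, against 10.5% and 9.46% of all genes). *Olig1*, a factor of the oligodendrocyte lineage, was 0.29 lower (SE 0.076, edgeR FDR = 0.0998), and 5 of 8 exposed animals had a lower sum of the 15 oligodendrocyte lineage genes than every control (576 to 765 CPM against 618.5 to 778 CPM). *Sox10* of the same lineage was -0.29 ± 0.086 (FDR = 0.113). Of 12 astrocyte genes 10 were lower in estimate and none passed.

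**Figure D4:**
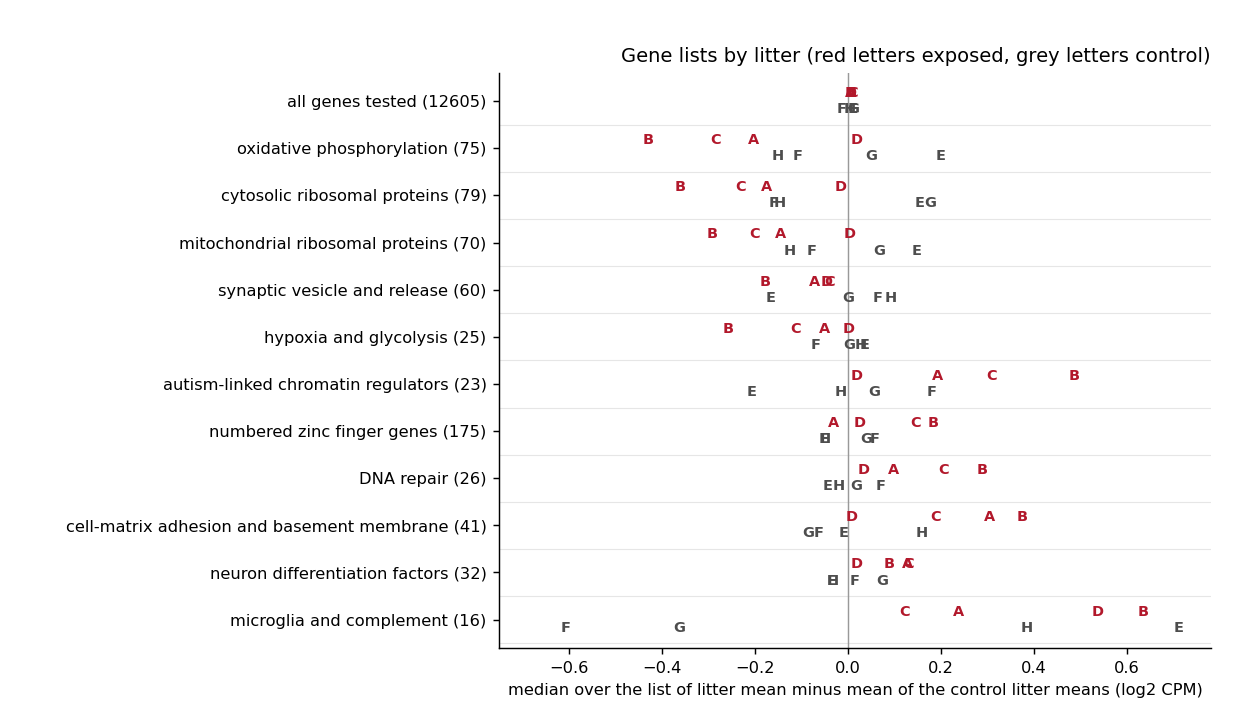
Median over all genes tested and over the tested genes of 11 lists (number in parentheses) of each litter's mean minus the mean of the 4 control litters, on the log2 CPM scale. Red letters are exposed litters A to D and grey letters control litters E to H. For oxidative phosphorylation, litters B, C and A lay at -0.43, -0.28 and -0.20, and litter D at 0.018 among the controls.

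Differences in the exposed group moved with the length of the exons. Over 10 groups of the tested genes ordered by exon length, the median log2 difference went from -0.10 in the group of shortest genes (67 to 1048 bases) to 0.13 in that of the longest (4845 to 26031 bases). Raised genes had a median exon length of 3353 bases and lowered genes one of 1424 bases, beside 2219 bases for all genes tested. In single animals, the longest group lay above the shortest, relative to the mean of the controls, by 0.57 and 0.53 in litter B, 0.45 and 0.25 in C and 0.21 and 0.094 in A. Litter D did not share this, at -0.054 and -0.10. Control litter E went the other way, at -0.38 and -0.36, and the other controls ran from -0.16 to 0.27. A correction of each library for exon length, added after this was seen, took the medians of the 10 groups to between 0.0037 and 0.014. It gave 162 calls, 49 higher and 113 lower, which held 91 of the 127, and 126 of the 127 kept their direction. RNA quality values of single animals were not analysed here, and the part of RNA quality in this trend was not tested.

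**Figure D5:**
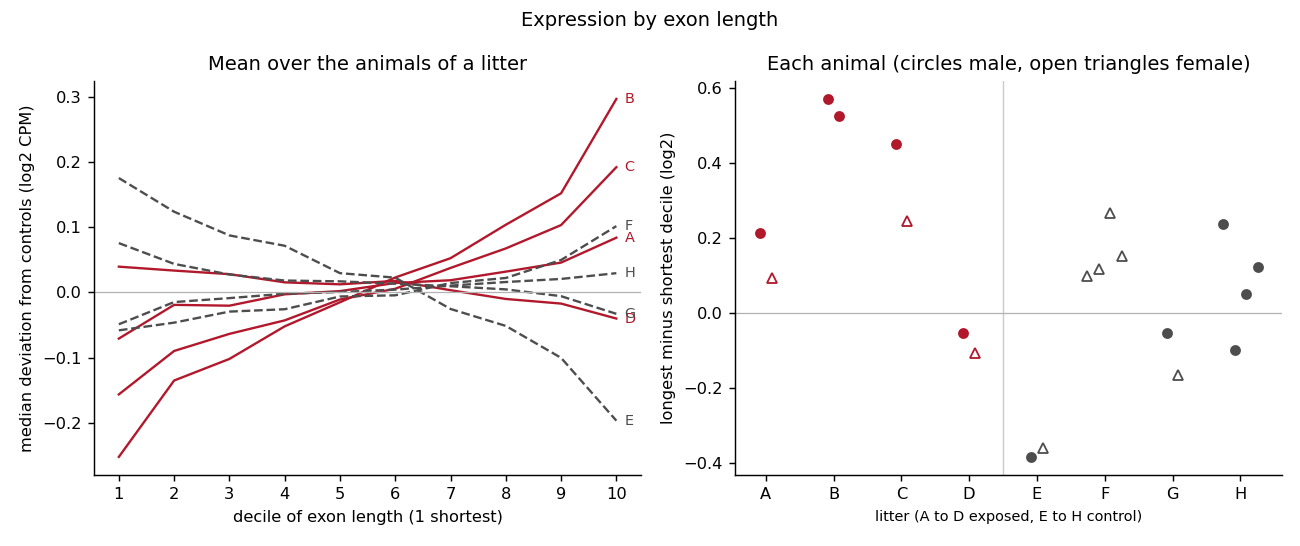
Left, the median deviation from the mean of the 12 controls (log2 CPM) over 10 groups of genes by exon length, averaged over the animals of a litter (red lines exposed litters A to D, dashed grey lines control litters E to H). Right, the longest minus the shortest group in each animal (filled circles male, open triangles female). Litters B and C rose with length, to 0.57 in 1 animal of B, and control litter E fell, to -0.38.

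Whether these differences were particular to CRMP1+CRMP2 was tested against the mean of the other 3 patterns in all 43 animals of the series, a contrast that uses no control. Of 12738 genes 0 passed FDR < 0.1 in edgeR (smallest 0.264), 1989 had p under 0.05 (15.6%; 945 higher, 7.42%, and 1044 lower, 8.20%), and DESeq2 called 34. Hence no gene was shown to be particular to this pattern by the main test. Of the 127 genes called against controls, 126 had the same direction in this contrast and 104 had p under 0.05. The CRMP1+CRMP2 animals are in both contrasts, so this is a description.

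The mean of *Polq* was 3.85 ± 0.764 CPM (SD, n = 8) in CRMP1+CRMP2, 4.09 ± 3.15 (n = 8) in STIP1+NSE, 2.78 ± 1.59 (n = 6) in CRMP1+GDA, 3.29 ± 1.93 (n = 9) in LDHA/B+CRMP1+STIP1 and 2.04 ± 0.444 (n = 12) in controls. The difference from the other patterns was 0.17 ± 0.26 (edgeR FDR = 0.7495), and its interval leaves room for either sign. *Nfatc3* had 19.5 ± 2.39 CPM in CRMP1+CRMP2 and means of 15.9, 15.7 and 15.3 CPM in the other patterns in the same order, a difference of 0.31 ± 0.076 (FDR = 0.271). *Fam241b* had 36.4 ± 3.92 CPM against 42.98, 45.3 and 44.5 CPM (-0.29 ± 0.070, FDR = 0.264). *Dpysl2* had 2544 ± 257 CPM against 2747, 2715 and 2817 CPM (-0.12 ± 0.058, FDR = 0.308).

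Genes with the smallest p against the other patterns included *Virma*, a subunit of the RNA m6A methyltransferase complex (63.0 ± 9.13 CPM against means of 49.3 to 53.6 CPM, 0.30 ± 0.07), *Bdp1*, a subunit of the polymerase III factor TFIIIB (5.59 ± 1.52 against 3.75 to 4.27 CPM, 0.53 ± 0.13), *Lamtor4* of the lysosomal Ragulator complex (21.01 ± 2.91 against 26.05 to 28.6 CPM, -0.36 ± 0.084) and *Arl10*, a small GTPase gene (38.1 ± 3.66 against 42.1 to 46.1 CPM, -0.21 ± 0.049), each with edgeR FDR = 0.264. *Virma*, *Bdp1* and *Arl10* also passed against controls. *Lamtor4* did not.

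A list of 12 genes was taken for the general and pattern-wise signatures of the study. The study's text names all of them but *Creb1*, and it also names *Kiaa0408L*, which the list lacks. Of the 12 genes 9, *Creb1* among them, were higher and 3 lower in estimate here. *Polq*, *Pag1*, *Grin3b* and *Bach1* passed FDR < 0.1. The study chose the genes it names on samples that include these, so their direction is not independent evidence. *Bach1*, a repressor of heme oxygenase and antioxidant genes, was 0.25 ± 0.063 higher (edgeR FDR = 0.0939), and *Bach2* was 0.48 ± 0.16 higher without passing (FDR = 0.14). *Mt1*, a metallothionein gene, was 0.62 ± 0.21 lower without passing (FDR = 0.152). Its litter means did not overlap, as held in the lower direction for 1.95% of all genes tested. Of the exposed animals 7 lay below the control median, and the male of litter A, at 7.08 CPM, lay above it.

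The difference between exposed and control animals was compared between the sexes by an interaction term, with 5 exposed and 6 control males and 3 exposed and 6 control females. It gave 0 genes at FDR < 0.1 in edgeR (smallest 0.257), 978 at p under 0.05 (7.76%), and 19 in DESeq2. The 3 genes of smallest p were *Tph1*, *Prph2* and *Tulp1*, all pineal or photoreceptor genes, and both animals with pineal RNA were females. Without these 2 animals 0 genes passed and 632 had p under 0.05. Of the 127 called genes 7 had p under 0.05 for the interaction. Levels of *Spryd3* were 155.9 CPM in exposed males and 155.5 CPM in exposed females, against 186 and 181 CPM in controls.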

How the data were processed

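Gene counts as deposited were used: per the labels and the study's methods, the authors aligned paired-end reads of poly-A libraries to rn7 with STAR 2.5.4b and used featureCounts for gene-level counting; its settings for strand, multimapping and mates are not given in the sources used here. Of low counts 73.9% were even, so mates may have been counted singly, and a fit on halved counts was added to the alternatives. The members and gene lists were chosen with earlier results of these data known. Genes above 1 CPM in at least 2 animals were fitted with edgeR 4.0.16 (R 4.3.3; TMM, robust quasi-likelihood test, sex as covariate, FDR < 0.1), on 12605 of 17494 genes. limma 3.58.1, DESeq2 1.42.0 and sva 3.50.0 gave alternatives, and the tests were checked on simulated counts. CPM use TMM-scaled library sizes. Named are the antigen genes, the 15 genes of smallest p in each direction with FDR < 0.1 and a mean of at least 1 CPM, up to 4 genes of smallest p per list, genes of the study's text, and the leading genes of the other contrasts. The list for the study's text also held *Creb1*, which that text does not name. *Vps37d*, *Lrit1* and *Evx1* were named after their values were seen. p-values measure the spread between animals, which share litters. Coordinates are those of the deposited count table (rn7), 1-based.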

Additional observations from a re-analysis of the deposited data

Results flagged for a closer look

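Among the 8 exposed animals, 69 genes and 20 marker sums were searched for 1 animal far from the others by Dixon's test, which flags some groups by chance alone. It marked 9 genes and 4 sums. In the female of litter A these were *Neurod4* (23.46 CPM), *Crx* (12.93 CPM), *Sag* (11.62 CPM), *Mfrp*, a frizzled-related membrane protein gene (61.26 CPM), the pineal and photoreceptor sum (463.8 CPM) and the choroid plexus sum (3763 CPM).

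In the male of litter C they were *Hoxa5* (27.94 CPM), *Hoxb5* (27.83 CPM) and the sum of all Hox genes (118.5 CPM). In the male of litter B with low thalamus markers, *Creb1* (30.67 CPM) and *Bdp1* (8.988 CPM) stood above the other exposed animals. *Gabpa* stood below them in the male of litter A (40.81 CPM), the 1 exposed animal within the range of the controls for this gene, and the mast cell sum stood above in the male of litter D (191.9 CPM). For 0 of the genes searched did all exposed males lie on one side of the median of the male controls and all exposed females on the other side of the median of the female controls.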

How the results depend on the processing

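The count of 127 genes against same-series controls depended on the fit. It was 83 with a filter of 1 CPM in 8 animals, 63 without a filter, 198 with halved counts, 827 with DESeq2, 2755 with a first surrogate variable and 1669 with all 24 controls and a surrogate variable. It was 0 with the litter as a random effect, with counts summed per litter, with the first 2 components of the region markers as covariates, and without the animals with pineal or with Hox RNA, and 1 without the animals low in thalamus markers. Leaving out 1 litter in turn gave 0 to 2154 genes, with 80 without control litter E, 9 without H, 1 without exposed litter B, 0 without C or control litter G, 2080 without D and 2154 without F. Against the other patterns 0 became 34 with DESeq2, and 0 to 1417 without 1 litter, the highest without exposed litter D. For the interaction 0 became 19 with DESeq2 and 0 to 13 without 1 litter, the highest again without D. Litter means without overlap, 416 genes, became 476 to 1759 without 1 litter, where fewer litters have to be apart. The causes were not tested. No paired analysis was possible because the labels give no replicate numbers that exposed and control animals share.

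Differences near 0 changed sign. With region components *Dpysl3* was at -0.08292 and *Dpysl5* at -0.05827 (log2). With all 24 controls and a surrogate variable *Dpysl3* was at -0.06062, *Dpysl4* at 0.02059 and *Dpysl5* at -0.01738. Without the pineal animals *Dpysl3* was at -0.08828. Without the Hox animals *Crmp1* was at 0.03544 and *Dpysl4* at 0.02099. Without the animals low in thalamus markers *Dpysl3* was at -0.06442 and *Dpysl5* at -0.03524. With the exon length correction *Dpysl5* was at -0.02443 and *Cux1* at -0.01668. Without 1 litter in turn *Crmp1* ran from -0.09613 to 0.009452, *Dpysl3* from -0.03856 to 0.06651 and *Dpysl4* from -0.06044 to 0.01158. *Grin3b* kept its direction in every one of these fits but not its call in most. The lists of oxidative phosphorylation, ribosomal, synaptic vesicle, chromatin, zinc finger, DNA repair and cell-matrix genes kept the sign of their median in all 26 fits.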

Other observations

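Lists without a place above gave no call at FDR < 0.1. Hypothalamic markers were lower in estimate for 20 of 22 genes (median -0.45) with none called, among them *Avp*, vasopressin (-1.88), and *Trh*, thyrotropin-releasing hormone (-1.18). Of 21 striatal and interneuron markers 15 were lower in estimate (median -0.20), and of 8 habenular ones 6 (median -0.17). Cortical and hippocampal glutamatergic markers were higher in estimate for 11 of 15 genes (median 0.19). Of these markers 4 (26.7%) were higher at p under 0.05, against 9.46% of all genes. Endothelial and pericyte markers were higher in estimate for 18 of 19 genes (median 0.21) and erythroid genes for 7 of 9 (median 0.38). Radial glia (8 of 15 higher) and ependymal genes (4 of 5 lower) gave no call, and muscle and pituitary genes were lower in estimate for 8 of 8. At p under 0.05, 4 radial glia genes (26.7%) were higher and 1 (6.67%) lower, against 9.46% and 10.5% of all genes.

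Stress and activity genes did not pass the test. Of 18 immediate early genes 13 were lower in estimate (median -0.096), with 1 lower at p under 0.05 (5.56%, against 10.5% of all genes). Of 20 genes of the unfolded protein response and chaperones 18 were lower in estimate (median -0.053). Glucocorticoid response genes were mixed, with 7 of 12 higher in estimate and *Mt1* of smallest p. Of 24 interferon response and antigen presentation genes 17 were higher in estimate (median 0.13). At p under 0.05, 4 (16.7%) were higher and 1 (4.17%) lower, against 9.46% and 10.5% of all genes.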
